A study of Homo sapiens with 6 samples.

Results

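miR-210 is a single human microRNA (miRNA) gene whose hairpin precursor gives a guide strand, miR-210-3p, and a minor strand, miR-210-5p. Both arms were followed in small RNA libraries from MIO-M1, a cell line established from human Müller glia, and from the extracellular vesicles (EV) it secreted in culture. They are 2 of the 2576 mature miRNAs listed in the deposited tables and were chosen by name. Whole cells were sampled at passages 22, 24 and 26 and EV at passages 23, 25 and 27, and these are called replicates 1, 2 and 3 of each group, with n = 3 libraries per group. All samples carry the label of wild-type MIO-M1 cells, and no library came from another line or from primary Müller glia. Cells were grown in DMEM with foetal calf serum. EV were then collected from medium described as serum-free in the labels and as vesicle-depleted in the methods. According to the methods, EV were treated with RNase before lysis, and the kit used to extract their RNA differed from that used for cells. The study isolated EV by filtration and centrifugation of the medium, while whole cells were lysed directly. Fraction, isolation steps, extraction kit and RNase treatment therefore changed together and cannot be told apart in any comparison below. The groups had no passage in common either.

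Mature miRNAs pair with messenger RNA mainly through the seed, bases 2 to 8 from the 5′ end, and lower the output of the messages they bind. miR-210-3p is widely known as a target gene of hypoxia-inducible factor (HIF), the transcription factor that accumulates when oxygen is low. It is best known for repressing the iron-sulphur cluster scaffold proteins of mitochondria, and it is commonly used as a marker of the hypoxic response. None of the libraries was made from cells held at low oxygen, so induction by hypoxia could not be examined in these data, and the comparison is that of secreted EV with whole cells.

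The hairpin is shown first because both members are cut from it. Its sequence, from RefSeq on GRCh38.p14, is written 5′ to 3′, with miR-210-5p and then miR-210-3p in capitals.
MIR210 hairpin: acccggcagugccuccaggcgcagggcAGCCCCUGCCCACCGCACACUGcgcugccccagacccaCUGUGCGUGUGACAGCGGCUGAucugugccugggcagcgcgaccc

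The mature sequences follow with the seed in capitals, since the seed defines the targets that each strand can bind.
hsa-miR-210-3p: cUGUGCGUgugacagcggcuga
hsa-miR-210-5p: aGCCCCUGcccaccgcacacug

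Sequences were found in RefSeq for 2262 of the 2576 listed miRNAs. Among these, 0 others had the seed of miR-210-3p and 0 others had that of miR-210-5p, so neither arm had a seed relative that could be followed beside it. The deposited tables place miR-210-3p on the minus strand of chromosome 11 from 568112 to 568133 and miR-210-5p from 568150 to 568171. The table header names no genome build, but the positions of both arms are the same as in RefSeq on GRCh38.p14. The hairpin, at 568089 to 568198 on that build, lies within the long non-coding gene MIR210HG (565660 to 568457, minus strand). In GENCODE release 29 it falls in an intron of all 4 annotated MIR210HG transcripts and overlaps 0 of their exons. The nearest other miRNA in the tables, miR-6743-3p, lies 358684 bases from the hairpin, so miR-210 has no clustered neighbour. Each arm is listed at this locus alone.

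Reads assigned to mature miRNAs totalled 396025 to 3990900 per whole cell library and 1225541 to 3134561 per EV library. Whole cell replicate 1 was the shallowest library. EV replicate 3 held the fewest detected miRNAs, 329, although its total was the highest of the EV libraries. Levels are given in CPM, the count of a miRNA divided by the total count of its library and multiplied by 1000000, and 95% intervals are exact Clopper-Pearson intervals that cover counting error only. The labels call the cells Müller glia, and all 4 miRNAs listed as Müller glia markers (miR-204-5p, miR-9-5p, miR-125b-5p and miR-100-5p) were counted in every library. Their summed level, mostly miR-125b-5p, was between 135466 and 137740 CPM in whole cells and between 68994 and 105788 CPM in EV. The log2-fold change in EV was -1.90 for miR-204-5p and -1.19 for miR-125b-5p, but 1.06 for miR-9-5p and 1.03 for miR-100-5p, and only that of miR-204-5p had an adjusted p below 0.05 (0.00872, edgeR).

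miR-210-3p was present in all 6 libraries and was lower in every EV library than in any whole cell library. It reached 245 CPM in whole cell replicate 1, from 97 counts (95% interval 199 to 299 CPM). Whole cell replicate 2 had 480 CPM, from 1915 counts (459 to 502 CPM), and whole cell replicate 3 had 418 CPM, from 524 counts (383 to 456 CPM). The shallow whole cell replicate 1 was thus the lowest of its group, below the other two by more than counting error.

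In EV, miR-210-3p was at 88.9 CPM in replicate 1, from 109 counts (73.0 to 107 CPM). Replicate 2 had 141 CPM, from 287 counts (125 to 158 CPM), and replicate 3 had 41.2 CPM, from 129 counts (34.4 to 48.9 CPM). EV replicate 3, the deepest EV library, had the lowest level. From low to high the libraries stood in the order EV replicates 3, 1 and 2, then whole cell replicates 1, 3 and 2. The counting intervals of neighbours in this order did not overlap, so that the spread between libraries of a group was larger than counting error.

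**Figure D1:**
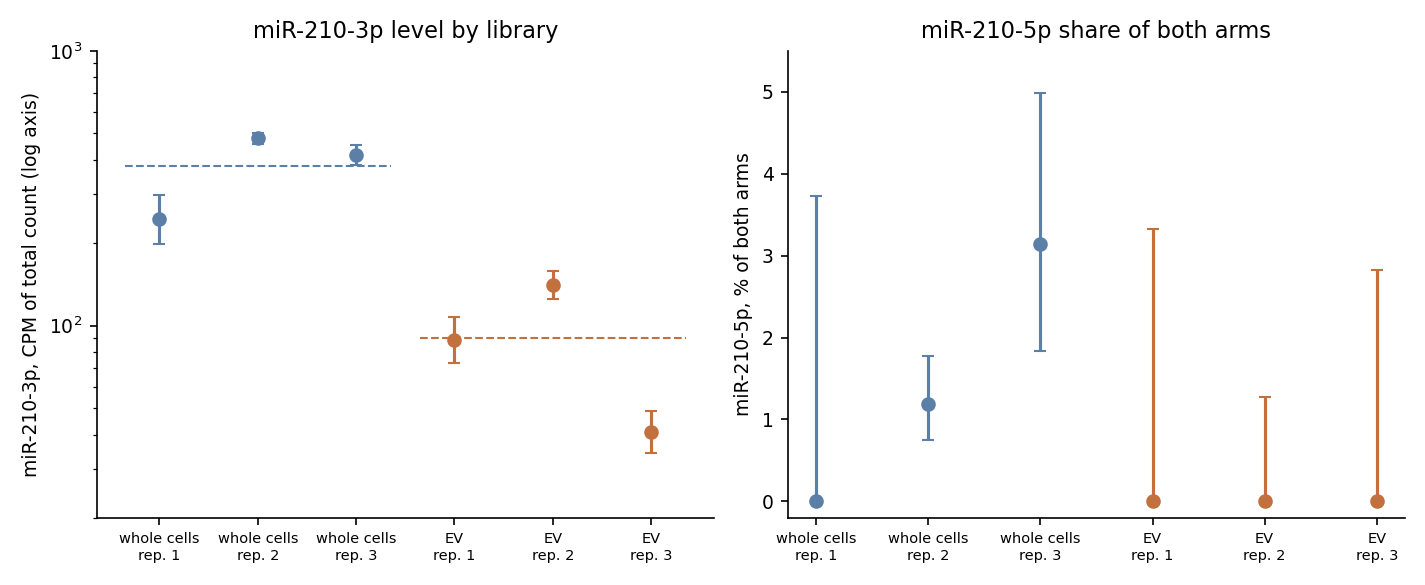
Left, the level of miR-210-3p in each library as CPM of the total count on a log axis, and right, miR-210-5p as a percentage of the counts of both arms. Points are single libraries (blue, whole cells; orange, EV), bars are 95% Clopper-Pearson intervals and dashed lines are group means; whole cell libraries lay between 245 and 480 CPM, EV libraries lay between 41.2 and 141 CPM, and miR-210-5p was counted in whole cell replicates 2 and 3 alone.

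Whole cells had a mean level of 381 ± 122 CPM (SD, n = 3), against 90.3 ± 49.8 CPM (SD, n = 3) for EV, a ratio of means of 4.22. The lowest whole cell library was 1.74 times the highest EV library. By a two-sided exact permutation test of the difference of means, p was 0.1, the smallest p that 3 libraries against 3 can give. Complete separation was common in these data, as the EV and whole cell libraries did not overlap for 48.4% of the 430 miRNAs tested, with EV below whole cells for 27.9%. The coefficient of variation of miR-210-3p was 32.0% in whole cells and 55.2% in EV.

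In the test across all miRNAs, the log2-fold change of miR-210-3p in EV against whole cells was -2.18 with a standard error of 0.63 (adjusted p = 0.0386, quasi-likelihood test of edgeR, adjusted after Benjamini and Hochberg). This is a fold of 4.54 in favour of whole cells on TMM-scaled counts. miRNAs were called when the adjusted p was below 0.01 and the log2-fold change was at least 2.5 in size, and miR-210-3p met neither limit. These limits called 5.81% of the 430 miRNAs by edgeR, while an adjusted p below 0.05 alone, which miR-210-3p met, was reached by 28.6% of them. DESeq2's Wald test gave -2.35 with a standard error of 0.60 and an adjusted p of 0.000490, past the limit on p but not the limit on fold. With DESeq2, 25.1% of the 430 miRNAs had an adjusted p below 0.01, and 16.7% met both limits.

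By size of the log2-fold change, 83 of the 430 miRNAs (19.3%) lay further toward whole cells than miR-210-3p. The median over all 430 was -0.23. Against the background of these libraries, miR-210-3p was therefore on the whole cell side of the range but not at its end.

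The direction was the same in all 14 alternative fits, with log2-fold changes from -2.60 to -1.24, and the adjusted p was below 0.05 in 8 of them. It did not stay below 0.05 with library totals as the scaling (adjusted p = 0.0502, edgeR) or in the fits without whole cell replicate 2 (0.200), whole cell replicate 3 (0.130), EV replicate 1 (0.0644) or EV replicate 3 (0.0534), nor with the trend on GC content removed (0.234), a fit described with the GC content. Thinning every library to 396025 counts gave -2.26 (adjusted p = 0.0209, edgeR), so the difference was as large at equal depth.

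**Figure D2:**
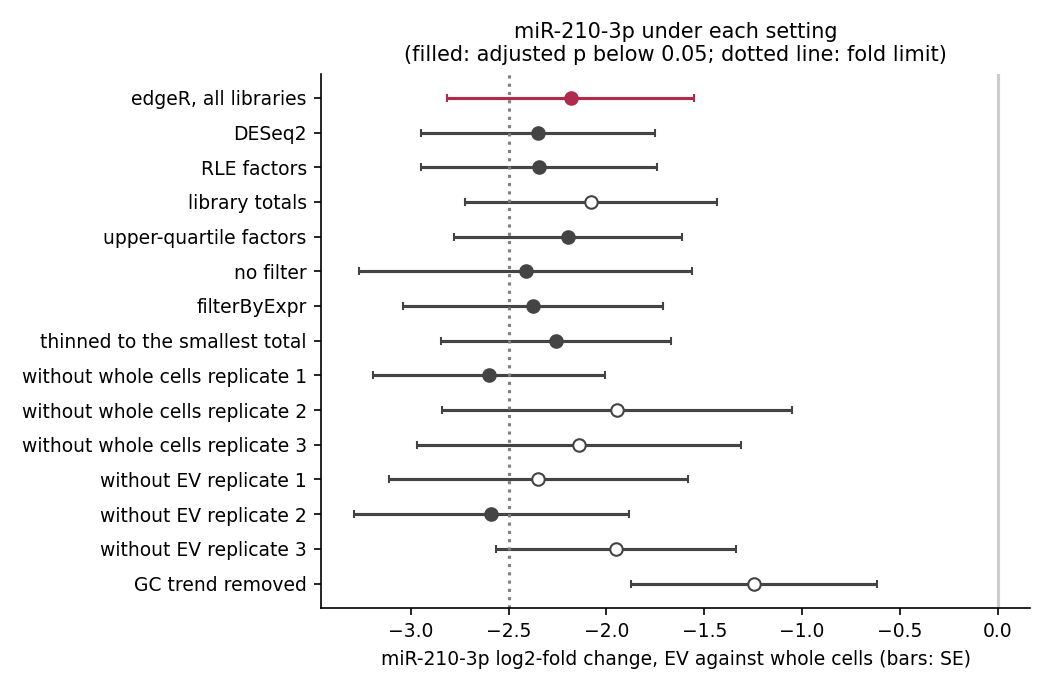
The log2-fold change of miR-210-3p in EV against whole cells under each setting, with bars for 1 standard error; the fit on all 6 libraries is in red, filled points have an adjusted p below 0.05, and the dotted line marks the fold limit of -2.5. All points lie below 0, and the fit with the GC trend removed, at -1.24, lies closest to it.

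On the scale of log2(CPM + 4) with TMM-scaled counts, miR-210-3p had a mean level of 8.53 ± 0.73 (SD, n = 3) for whole cells, against 6.40 ± 0.71 (SD, n = 3) for EV. It ranked 110 of 430 by mean level in whole cells, between miR-107 at 8.54 ± 0.29 and miR-409-5p at 8.49 ± 0.19 (SD, n = 3 each). In EV it ranked 194 of 430, between miR-484 at 6.40 ± 1.05 and miR-193b-5p at 6.40 ± 0.54 (SD, n = 3 each). As adjacent ranks, these neighbours differ from miR-210-3p in mean level by less than the spread between libraries by choice. Within single libraries, ranked from the highest count down among all detected miRNAs, miR-210-3p was number 123 of 586 in whole cell replicate 1 and within the top 9.55% and 12.8% in whole cell replicates 2 and 3. In EV replicates 1, 2 and 3 it was number 188 of 431, 178 of 427 and 257 of 329. These places are within the top 43.6%, 41.7% and 78.1%. By number, miR-210-3p thus stood further down in every EV library than in any whole cell library, where 123 was the furthest down. The percentages in EV are also raised by the smaller number of miRNAs detected there.

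miR-210-5p was close to the limit of detection. It had 0, 23 and 17 counts in whole cell replicates 1, 2 and 3, which is 0, 5.76 and 13.6 CPM, and it was not counted in any EV library. The limit set by 0 counts was placed at 3 counts per library, or 7.58 CPM in whole cell replicate 1 and 2.45, 1.47 and 0.957 CPM in EV replicates 1, 2 and 3. The limit for whole cell replicate 1 lies above the level seen in whole cell replicate 2, so its 0 does not set it apart. The mean of 6.45 ± 6.81 CPM (SD, n = 3) in whole cells was 3.97 times the mean of these EV limits. That takes the whole cell mean as measured, without its spread between libraries. The 95% intervals of EV replicates 1, 2 and 3 reach further, to 3.01, 1.81 and 1.18 CPM, so this ratio is no strict bound. It rested largely on whole cell replicate 3, without which the mean was 2.88 CPM and the ratio 1.77. Without whole cell replicate 1 the ratio was 5.95. The groups were not separated, because whole cell replicate 1 was also at 0 (two-sided exact permutation test on CPM, p = 0.4). With these ties at 0, no split of the values gives a p below 0.4, so the test cannot decide.

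The minor arm did not reach 5 CPM in 3 libraries and so did not enter the test of 430 miRNAs, whereas miR-210-3p did. Without the filter its adjusted p was 0.0402 by edgeR and 0.0703 by DESeq2, with 20.2% of 1188 miRNAs at an adjusted p below 0.05 by edgeR. The edgeR value was above 0.05 without whole cell replicate 2 (0.230), whole cell replicate 3 (0.122), EV replicate 2 (0.0717) or EV replicate 3 (0.0728). A 0 in EV at this level was common. Of the 145 miRNAs with a mean of 3 to 12 CPM in whole cells, 59 (40.7%) were at 0 in every EV library.

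The share of miR-210-5p among the counts of both arms describes how unevenly the strands of the hairpin were represented. It was 1.19% (23 of 1938 counts, 95% interval 0.754 to 1.78%) in whole cell replicate 2 and 3.14% (17 of 541, 1.84 to 4.98%) in whole cell replicate 3. It was 0 of 97 in whole cell replicate 1, which allows a share of up to 3.09% at the limit of 3 counts (95% interval 0 to 3.73%). These 3 libraries gave a mean of 1.44% ± 1.59 (SD, n = 3).

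In EV the counts were 0 of 109, 0 of 287 and 0 of 129 in replicates 1, 2 and 3. At the limit of 3 counts these allow shares of up to 2.75%, 1.05% and 2.33%. Their 95% intervals reach further, to 3.33%, 1.28% and 2.82%. The limit of 3 counts in EV replicate 2 lies below both shares measured in whole cells. The 95% interval of EV replicate 2, however, covers the share of whole cell replicate 2. That of EV replicate 1 covers both shares, and that of EV replicate 3 covers the share of whole cell replicate 2 alone. Between libraries, the shares of EV and whole cells overlapped at 0 (two-sided exact permutation test, p = 0.4). All libraries but whole cell replicates 2 and 3 were tied at 0. No split of such values gives a p below 0.4, so the test cannot decide whether the shares differed. Summed over libraries, miR-210-5p made up 40 of 2576 counts in whole cells, or 1.55% (95% interval 1.11 to 2.11%). In EV it was 0 of 525, which allows up to 0.571% at the limit of 3 counts (95% interval 0 to 0.700%). The summed share in EV was thus below that in whole cells by more than counting error, but the sums leave out the spread between libraries.

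Strand bias of this size was ordinary. Both arms together reached 50 counts in every library for 113 hairpins, and 56 of these had a lower share of the minor arm in whole cells than miR-210. Of the 34 other hairpins with a minor-arm share of 0.5 to 5% in whole cells, 7 also had their minor arm at 0 in all EV libraries.

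GC content is one property that miR-210 did not share with most miRNAs in these libraries. It was 63.6% in miR-210-3p and 72.7% in miR-210-5p, against a median of 50% over the 390 tested miRNAs with a RefSeq sequence, and 85.6% of these had a lower GC content than miR-210-3p. Across these miRNAs the log2-fold change in EV was lower at higher GC content, with Pearson's r of -0.35. The points share the same 6 libraries and are not independent, so this is a description and no p is given.

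The median log2-fold change was 1.67 for the 65 miRNAs under 40% GC, 0.06 for the 126 from 40 to 50%, -0.68 for the 133 from 50 to 60% and -1.51 for the 66 at 60% or more. In the group at 60% GC or more, 20 of 66 miRNAs (30.3%) lay further toward whole cells than miR-210-3p, against 6 of 65 (9.23%) in the group under 40%. After the trend on GC content was removed, the log2-fold change of miR-210-3p was -1.24 with a standard error of 0.63 (adjusted p = 0.234, edgeR, 390 miRNAs). The difference thus moved by more than the standard error and lost the adjusted p below 0.05. GC content is fixed for each miRNA, and it was the difference between fractions that varied with it across miRNAs. The trend was fitted on these same log2-fold changes, miR-210-3p included, and its own error is not in the adjusted p. The part of GC content in the difference was not tested further.

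**Figure D3:**
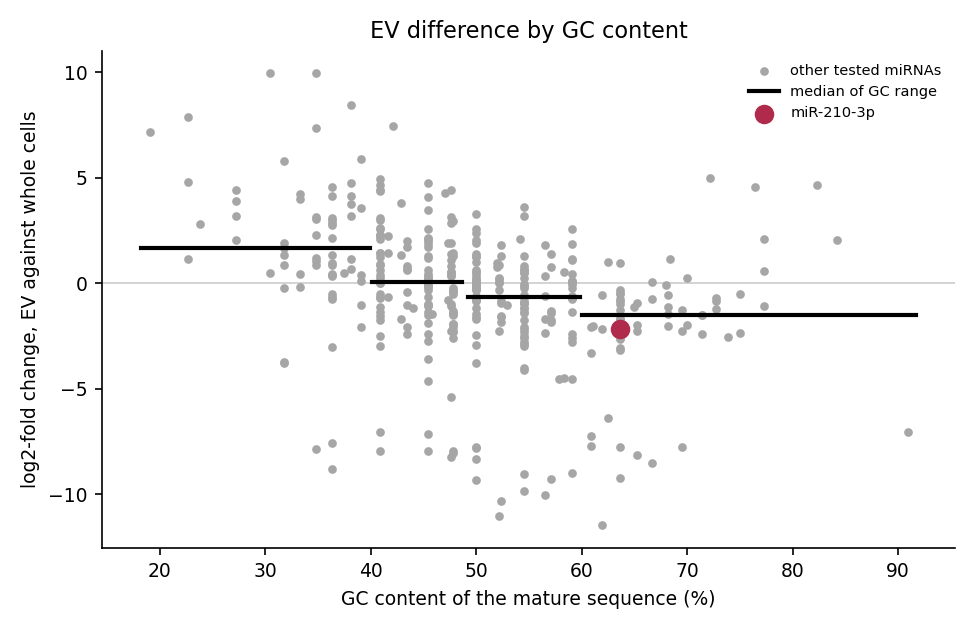
The log2-fold change in EV against whole cells, on the vertical axis, for the 390 tested miRNAs with a known mature sequence, by the GC content of that sequence in percent. Black lines are the medians of 4 ranges of GC content, going from 1.67 to -1.51; miR-210-3p, in red, lies at 63.6% GC and -2.18, below the median of its range.

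The miRNAs with the most similar pattern were taken as the 5 with the smallest Euclidean distance to miR-210-3p over the 6 libraries, each profile being log2(CPM + 4) centred on its own mean. They were miR-1180-3p at a distance of 0.669, miR-30c-1-3p at 0.695, miR-127-3p at 0.717, miR-133a-3p at 0.748 and miR-671-5p at 0.897. The median distance of all 429 other tested miRNAs was 3.28. Their mature sequences are printed, with seeds in capitals, to show that their seeds differ from that of miR-210-3p and from one another.
hsa-miR-1180-3p: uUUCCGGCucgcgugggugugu
hsa-miR-30c-1-3p: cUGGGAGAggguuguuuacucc
hsa-miR-127-3p: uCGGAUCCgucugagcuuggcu
hsa-miR-133a-3p: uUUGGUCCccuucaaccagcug
hsa-miR-671-5p: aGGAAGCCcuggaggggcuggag

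These profiles matched that of miR-210-3p in shape and not in level. miR-127-3p, a miRNA of the imprinted DLK1-DIO3 cluster, was far more abundant, with 28455 CPM on average in whole cells and 5511 CPM in EV. It stood at -2.43 on the log2 scale with a standard error of 0.43 (edgeR, adjusted p = 0.00872), past the limit on p but not on fold. miR-133a-3p, best known from muscle, and miR-30c-1-3p, the minor strand of a miR-30 hairpin, were rare, with means of 25.3 and 26.9 CPM in whole cells, and both were at 0 in EV replicate 3. Their log2-fold changes were -2.08 and -2.87 with adjusted p of 0.411 and 0.241 (edgeR). miR-1180-3p had the same GC content as miR-210-3p, 63.6%, and a log2-fold change of -1.76 (adjusted p = 0.0617, edgeR). miR-671-5p had a GC content of 69.6% and -2.26 (adjusted p = 0.0428, edgeR). All had their lowest level in EV replicate 3, as miR-210-3p had, which follows from their choice by likeness over these libraries.

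**Figure D4:**
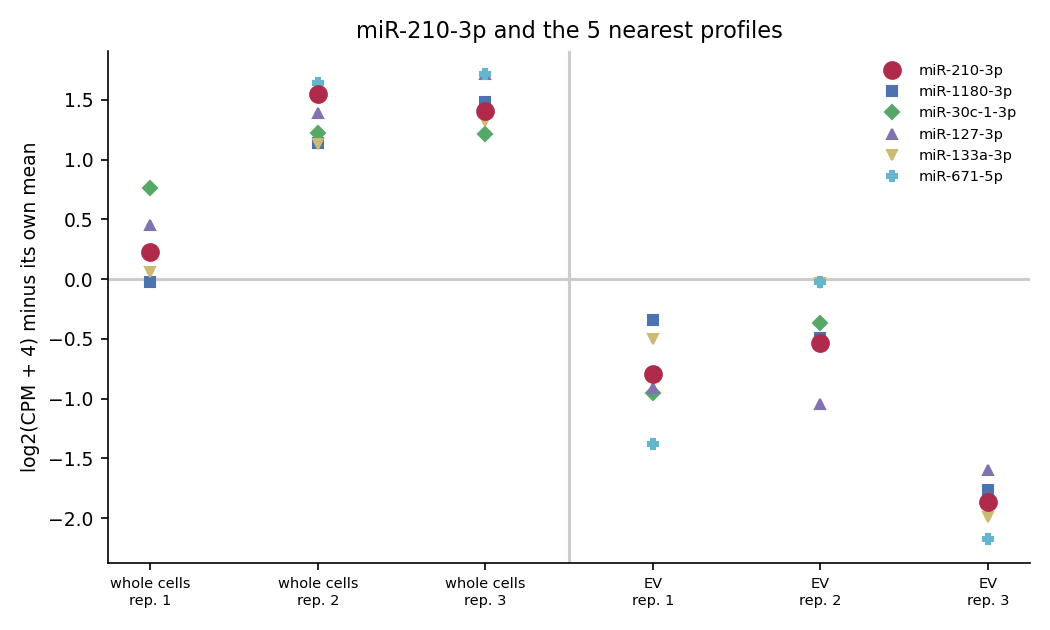
For each of the 6 libraries, log2(CPM + 4) of miR-210-3p (large red points) and of the 5 miRNAs with the nearest profile, each after subtraction of its own mean over the libraries. Every miRNA shown has its lowest value in EV replicate 3, and miR-210-3p has its highest value in whole cell replicate 2, at 9.02 before centring.

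miR-210 is commonly grouped with other miRNAs that have been reported to increase in hypoxic cells. A list of 15 such miRNAs was examined, and all 15 passed the filter. With the limits of 0.01 and 2.5, 1 was called higher and 0 were called lower in EV by edgeR, at an unadjusted p below 0.05 the numbers were 2 and 7 (17.2% and 18.6% of all 430), and DESeq2 called 1 (miR-21-5p) and 1 (miR-181a-5p). Of the 430 tested miRNAs, 4.42% were called higher and 1.4% lower by edgeR, and 9.77% and 6.98% by DESeq2. At an adjusted p below 0.05, 2 were higher and 5 were lower, where 14.7% and 14.0% of the 430 were. The median log2-fold change of the list was -0.66, against -0.23 over all 430, and 3 of its 15 members lay below miR-210-3p. These include miR-181c-5p, which had only 2, 0 and 0 counts in EV replicates 1, 2 and 3.

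miR-21-5p, an abundant miRNA of growth and survival signalling, was the member that was called. It stood at 24402, 10613 and 8561 CPM in whole cell replicates 1, 2 and 3 and at 126020, 122602 and 105125 CPM in EV. All EV libraries lay above all whole cell libraries, the opposite of miR-210-3p and as for 20.5% of the 430 miRNAs. The difference on the log2 scale was 3.11 with a standard error of 0.43 (adjusted p = 0.00448 from edgeR). Next in mean level were miR-23a-3p, with a log2-fold change of -0.97 (adjusted p = 0.0516, edgeR), and miR-26a-5p with 0.03 (adjusted p = 0.978, edgeR). The other member higher at an adjusted p below 0.05 was miR-27a-3p, at 1.82 (adjusted p = 0.0172, edgeR), named after its value was seen.

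The 5 members lower at an adjusted p below 0.05, also named after their values were seen, were miR-23b-3p, miR-103a-3p, miR-107, miR-181a-5p and miR-181b-5p. They come from 3 seed families, and the pairs that share a seed are printed to show how alike their sequences are. Capitals mark the seed.
hsa-miR-107: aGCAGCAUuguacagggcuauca
hsa-miR-103a-3p: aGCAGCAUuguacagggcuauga
hsa-miR-181a-5p: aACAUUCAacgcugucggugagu
hsa-miR-181b-5p: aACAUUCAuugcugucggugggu

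miR-107, which lies in a pantothenate kinase gene like its relative miR-103a-3p, resembled miR-210-3p in level and in difference. It stood at 354, 408 and 347 CPM in whole cell replicates 1, 2 and 3 and at 38.4, 107 and 93.2 CPM in EV replicates 1, 2 and 3. The EV libraries lay below the whole cell libraries, with a log2-fold change of -2.26 and a standard error of 0.56 (adjusted p = 0.0199 from edgeR). Reads of miR-107 and miR-103a-3p can be confused because the sequences are nearly identical, so their separate counts are uncertain. miR-181a-5p, a miRNA of neural and immune tissue, had -2.60 (standard error 0.56, adjusted p = 0.0121 from edgeR). The remaining 3 had log2-fold changes of -1.41 (miR-23b-3p), -1.33 (miR-103a-3p) and -1.45 (miR-181b-5p).

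**Figure D5:**
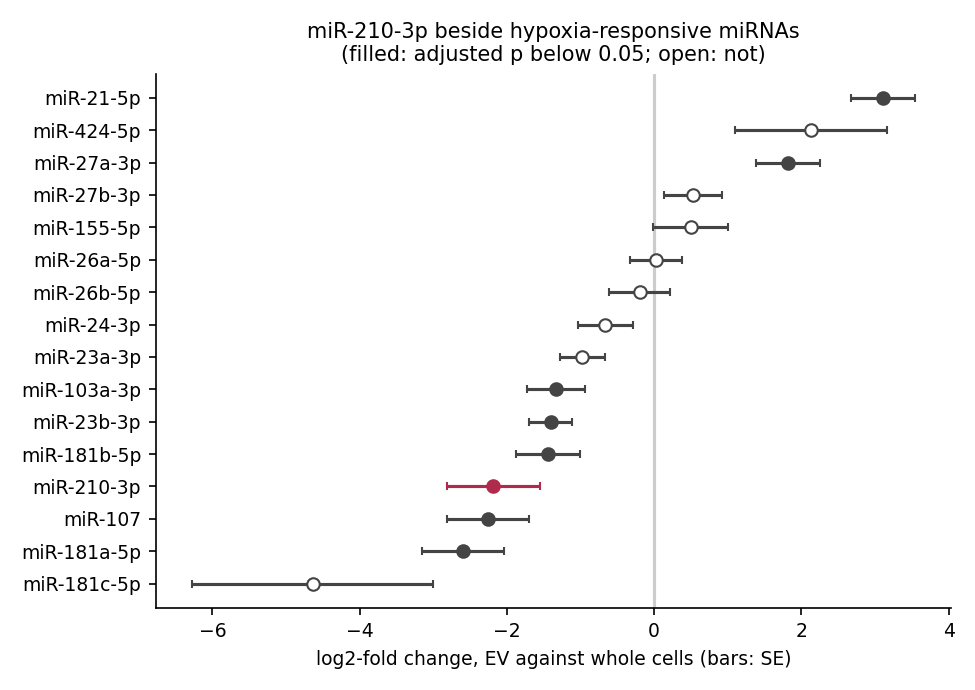
The log2-fold change in EV against whole cells, with bars for 1 standard error, for miR-210-3p (red) and the 15 listed hypoxia-responsive miRNAs, ordered by value. Filled points have an adjusted p below 0.05 (edgeR). miR-21-5p is highest at 3.11, miR-181c-5p lowest at -4.64 (adjusted p = 0.0757, edgeR), and miR-210-3p lies at -2.18. For miR-181c-5p the counts were low, at 7, 57 and 12 in whole cell and 2, 0 and 0 in EV replicates 1, 2 and 3.

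A second list held 8 miRNAs reported to target HIF or its partner subunit, of which 6 passed the filter. miR-199a-5p and miR-519c-3p had a count of 0 in all 6 libraries. By edgeR and by DESeq2 0 of the 6 were called, and at an unadjusted p below 0.05 edgeR listed 0 higher and 1 lower, which was miR-107, against 17.2% and 18.6% of all 430. Of the most abundant members, miR-155-5p was at 0.49 on the log2 scale (adjusted p = 0.543, edgeR) and miR-20a-5p at -1.03 (adjusted p = 0.658, edgeR). miR-20a-5p varied widely in EV, with 84, 590 and 2 counts in replicates 1, 2 and 3. The median over the 6 was -0.27, close to the -0.23 of all tested miRNAs.

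Markers of other cell types were also counted. Of the 7 blood and serum markers 4 were tested, of which 1 (miR-142-3p) was called higher in EV and 3 had an adjusted p below 0.05 (edgeR; miR-451a and miR-16-5p besides), while miR-486-5p stood at 0.78 (adjusted p = 0.487, edgeR). Both endothelial markers, which are the 2 arms of miR-126, were called higher. The liver marker was higher at an adjusted p of 0.0124 (edgeR) without being called. Of all 430 tested miRNAs, 4.42% were called higher and 14.7% were higher at an adjusted p below 0.05 (edgeR). The 7 blood and serum markers summed to between 27589 and 40298 CPM in whole cells and to between 86368 and 116880 CPM in EV, most of it miR-16-5p. Without miR-16-5p, the other 6 summed to between 164 and 1163 CPM in whole cells and to between 1549 and 2250 CPM in EV, with 2 of the 6, miR-451a and miR-144-3p, at 0 in all whole cell libraries. The endothelial miR-126 arms summed to between 30.3 and 93.4 CPM in whole cells and to between 535 and 810 CPM in EV. The liver miRNA miR-122-5p was at 7.58 to 11.2 CPM in whole cells and at 91.2 to 200 CPM in EV. Their part in the level of miR-210-3p in EV was not tested. When the 10 most abundant miRNAs of each library were left out of the total, miR-210-3p stood at 908 ± 298 CPM (SD, n = 3) in whole cells and at 248 ± 115 CPM (SD, n = 3) in EV, a ratio of 3.66, and the groups did not overlap.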

How the data were processed

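Libraries were prepared with the QIAseq miRNA kit, and the authors trimmed adapters with Cutadapt, aligned the reads and deposited raw counts per mature miRNA. Per the file headers these counts come from featureCounts 1.5.0-p1 (strand setting 1) on the miRBase 20 annotation after Bowtie 1, whereas the labels and methods name Bowtie2. No collapsing of reads by molecular identifier is named in the sources used here, so copies of 1 molecule may be counted as several. The study took passages of the line as biological replicates, and p-values measure the spread between these libraries.

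Of the 2576 miRNAs, the 430 that reached 5 CPM in 3 or more libraries were kept. Counts were scaled with TMM factors and fitted in edgeR 4.0.16 under R 4.3.3 (quasi-likelihood test, Benjamini-Hochberg adjustment over all 430). A call needed an adjusted p under 0.01 together with a log2-fold change of 2.5 or more in either direction. DESeq2 1.42.0, named by the study, was the alternative. Single values were compared by two-sided exact permutation tests (scipy 1.17.1). The pseudocount on the log2 scale was 4. The random seed was 1. Both tools were tested on simulated data.

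Members and lists were chosen with earlier results of these data known. Named miRNAs were both arms of miR-210, the called and the 3 most abundant members of each list, the 5 nearest profiles and the neighbours in level and on the chromosome. miRNA sequences came from RefSeq (GRCh38.p14), and GC content from them. RT-qPCR, particle and protein measurements were not analysed here.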

Additional observations from a re-analysis of the deposited data

How the results depend on the processing

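miR-210-3p stayed lower in EV under every setting run. It was not called under any of them at the limits of 0.01 and 2.5. In the edgeR fit on all libraries, at -2.18, it was called only at an adjusted p below 0.05 with no fold limit. That choice was made after the data had been seen. In the DESeq2 fit, at -2.35, it passed the limit of 0.01 with no fold limit (adjusted p = 0.000490, Wald test). The study, which used DESeq2, listed miR-210-3p among its differentially expressed miRNAs, lower in EV, at the same rounded log2-fold change. That value does not reach the fold limit of 2.5 that the study states for its list, which also holds other miRNAs short of it. Leaving out 1 library gave log2-fold changes from -2.60 to -1.95. With 3 libraries per group the permutation tests could not reach 0.05. No paired analysis was possible because the labels give the groups no passage number in common, and a fit blocked by neighbouring passages was not run.

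The fitted log2-fold change of miR-210-5p is no bound, since EV was at 0. It was -6.91 by edgeR and -6.40 by DESeq2 without the filter, and from -7.67 to -6.00 with 1 library left out, against -1.20 as a difference of mean log2(CPM + 4) and -2.29 with a pseudocount of 1. For its share of both arms, leaving out 1 library gave differences from -2.16 to -0.59 percentage points.

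The number of called miRNAs, 25, was 72 with DESeq2, 38 with upper-quartile factors, 45 without the filter, 93 at an adjusted p below 0.05 with the fold limit and 123 without it. With the trend on GC content removed, added after the data had been seen for this count, it was 11. With 1 library left out it ran from 0 to 31, with 0 in the edgeR fits without whole cell replicate 3 (121 at an unadjusted p below 0.05) and without EV replicate 2 (169). It was 16 without whole cell replicate 1, 7 without whole cell replicate 2 and 11 without EV replicate 1. In the hypoxia-responsive list the number called, 1, became 2 with DESeq2 and 7 at an adjusted p below 0.05 with no fold limit, and in the HIF-targeting list 0 became 1 at that limit. The causes were not tested.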

Other observations

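Short letter runs that have been linked to the sorting of miRNAs into vesicles were searched in the mature sequences, on the RNA strand as written. GGCU, linked to SYNCRIP, occurred once in miR-210-3p, starting at base 17 from the 5′ end, and in 12.5% of the 2262 sequences. CCCU, linked to hnRNPA2B1, occurred in miR-210-5p, starting at base 4, and in 12.1% of the sequences. GGAG, also linked to hnRNPA2B1, was in neither arm and in 15.8% of the sequences. Among the 390 tested miRNAs with a sequence, the 56 with GGCU had a median log2-fold change in EV of -0.83, against -0.17 for those without it. The 42 with CCCU had a median of -2.16, against -0.05 for those without it. The 41 with GGAG had a median of -0.05, against -0.33 for the others. These are descriptions of letters. The GC content of the whole sequences that carry each run was not compared, and its part in these medians was not tested.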
